A study of Mus musculus with 10 samples.

Results

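The 4 mouse stearoyl-CoA desaturase genes, Scd1, Scd2, Scd3 and Scd4, were described in the livers of mice that had lost histone H3.3 in hepatocytes and in 2 kinds of control livers. The genes were taken by symbol, 4 of 55421 gene identifiers in the deposited table, and all 4 had at least 10 counts over the 10 livers, the minimum for fitting. The family was chosen by its measured expression in KO and control livers, with the high Scd2 level in KO already known, so differences of the 4 genes between KO and controls are given as a description without a test. The data are poly(A) RNA-seq of male livers. H3.3 KO mice (n = 4) carried floxed H3f3a and H3f3b, the H3.3 genes, and received AAV8 Tbg-Cre, a liver-directed virus that expresses Cre recombinase from the hepatocyte promoter Tbg. WT Cre controls (n = 3) were wildtype mice with the same virus. MCS controls (n = 3) had the floxed alleles and were given AAV8 Tbg-MCS, which lacks Cre. Injection was at 6 months of age in all groups and livers were collected 3 weeks later. As Tbg is a hepatocyte promoter, other liver cells were not the target of the deletion, and recombination by cell type was not measured here. For the floxed animals the labelled genotype is HIRA fl/fl, whereas sample titles name H3f3a and H3f3b, and groups follow the titles.

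Stearoyl-CoA desaturases are membrane enzymes of the endoplasmic reticulum that place a double bond into saturated fatty acyl-CoA, chiefly turning stearate into oleate and palmitate into palmitoleate, with electrons passed along cytochrome b5 and its reductase. The products are built into triglycerides, cholesteryl esters and phospholipids. Scd1 is the main isoform of adult mouse liver and a target of SREBP-1c and LXR, Scd2 is best known from brain and from liver before weaning, Scd3 from skin and the Harderian gland, and Scd4 from heart.

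The genes lie side by side on chromosome 19 (mm10), within 204.6 kb. Scd3 spans chr19:44203269-44244016, Scd2 chr19:44293674-44306864 and Scd4 chr19:44333092-44346743, all on the plus strand, and Scd1 chr19:44394455-44407879 on the minus strand. Each main transcript has 6 exons and a coding length of 1059 to 1077 bases, while the annotated exon length differs, with 4892 bases for Scd1, 5464 for Scd2, 3552 for Scd3 and 3768 for Scd4. Exon 3, which is coding throughout, shows how alike the copies are, and therefore where short reads can and cannot tell them apart. The sequences below are from GENCODE M21, 5′ to 3′ on each gene's own strand. Capitals mark bases that differ from Scd1. The exons lie at chr19:44403165-44403295 (Scd1), chr19:44298040-44298170 (Scd2), chr19:44234223-44234353 (Scd3) and chr19:44337501-44337631 (Scd4).
Scd1: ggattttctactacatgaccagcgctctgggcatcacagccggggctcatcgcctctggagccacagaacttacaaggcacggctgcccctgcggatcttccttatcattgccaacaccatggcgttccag
Scd2: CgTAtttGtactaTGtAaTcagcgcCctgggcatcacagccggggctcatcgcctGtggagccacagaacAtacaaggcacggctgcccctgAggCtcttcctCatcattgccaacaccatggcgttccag
Scd3: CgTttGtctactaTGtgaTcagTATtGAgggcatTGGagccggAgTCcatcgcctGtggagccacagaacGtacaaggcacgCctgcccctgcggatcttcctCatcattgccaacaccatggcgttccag
Scd4: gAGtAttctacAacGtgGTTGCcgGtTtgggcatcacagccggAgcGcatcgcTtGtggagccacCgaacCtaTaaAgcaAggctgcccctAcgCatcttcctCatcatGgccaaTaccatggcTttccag
Of 131 bases, Scd2 differed from Scd1 at 14, Scd3 at 21 and Scd4 at 27. Over exons 3 to 5 (570 bases) Scd1 and Scd2 were 94.21% identical, Scd1 and Scd3 89.65%, and Scd1 and Scd4 82.98%. Over the whole main transcripts, the longest stretch without a difference was 147 bases between Scd1 and Scd2 and 185 bases between Scd1 and Scd3. Across these transcripts, however, little was shared. Of all 50-base windows, 4.66% of Scd1, 3.79% of Scd2, 6.37% of Scd3 and 3.44% of Scd4 also occurred in another of the 4 genes, and for 100-base windows the shares were 2.64%, 0.896%, 2.54% and 0.53%. With windows found in any other annotated gene counted as well, 217 of 5406 windows of 50 bases were shared for Scd2, 230 of 3440 for Scd3 and 206 of 3257 for Scd4. The read length and the treatment of reads with several matches are not given in the sources used here, so the counts of the 3 low genes are uncertain to the extent that reads of an abundant copy could be assigned to them. Scd2 also overlaps Mir5114, which had 0 counts, and Scd3 the antisense gene AC125101.1, which had 1 count in all.

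Libraries held 14998426 counts (KO 1) to 26096141 counts. The targeted genes were lower in KO, with H3f3a at 62.1 ± 1.58 counts scaled to library size (CPM) in controls (SD, n = 6) and 17.4 ± 1.66 in KO (SD, n = 4), and H3f3b at 160 ± 24.0 and 50.5 ± 7.40 CPM. Both passed the edgeR test (adjusted p = 3.50e-08 and 3.62e-06). Hira was at 7.16 ± 1.14 and 6.51 ± 0.188 CPM (edgeR adjusted p = 0.477).

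Scd2 showed the widest separation of the family. It was a low transcript in controls and an abundant one in every KO liver, with counts of 433, 350 and 357 in WT Cre controls 1 to 3, 206, 234 and 148 in MCS controls 1 to 3, and 19901, 28644, 34092 and 22672 in KO 1 to 4. Scaled to library size, these were 18.0, 15.2 and 14.2 CPM in WT Cre controls, 8.39, 10.5 and 8.27 CPM in MCS controls, and 1297, 1133, 1437 and 867 CPM in KO. The KO livers therefore lay far above all controls with no overlap, as did 24.5% of all genes tested in one direction or the other. The mean was 12.4 ± 3.99 CPM in controls (SD, n = 6) and 1183 ± 245 CPM in KO (SD, n = 4), a ratio of 95.3, and the fitted log2 fold change was 6.57 (SE 0.26). Against WT Cre controls the ratio of means was 74.9 (log2 fold change 6.23), and against MCS controls 131 (log2 fold change 7.03). Both of these comparisons use the same 4 KO livers. Ordered by fold change, Scd2 was 84th from the top among 22449 genes. Ordered by level (CPM per kb of annotated exon), it moved from rank 6653 to 9335 in controls to rank 138 to 240 in KO.

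Scd1, one of the most abundant liver transcripts, was lower in KO on average but its groups met. Counts were 625811, 474453 and 476240 in WT Cre controls, 365309, 358678 and 355893 in MCS controls, and 268603, 204352, 244588 and 277183 in KO. In CPM these were 26086, 20579 and 18905, then 14871, 16013 and 19890, and in KO 17502, 8080, 10307 and 10601. KO 1 lay inside the range of the MCS controls, the other 3 KO livers lay below all controls, and all 4 lay below the WT Cre controls. KO livers did not overlap the WT Cre controls for 36.0% of genes tested, in either direction, and the MCS controls for 35.5%. The mean was 19391 ± 3964 CPM in controls (SD, n = 6) and 11622 ± 4078 CPM in KO (SD, n = 4). The fitted difference was -0.74 on the log2 scale (SE 0.22). It was -0.91 against WT Cre and -0.54 against MCS controls. Leaving out KO 1, which had the highest Scd1 level of the group and the fewest counts, gave -1.0. Scd1 took 1.40 to 2.55% of all counts in controls and 0.865 to 1.79% in KO, and it held rank 10 to 19 in controls and 14 to 27 in KO by CPM per kb.

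**Figure D1:**
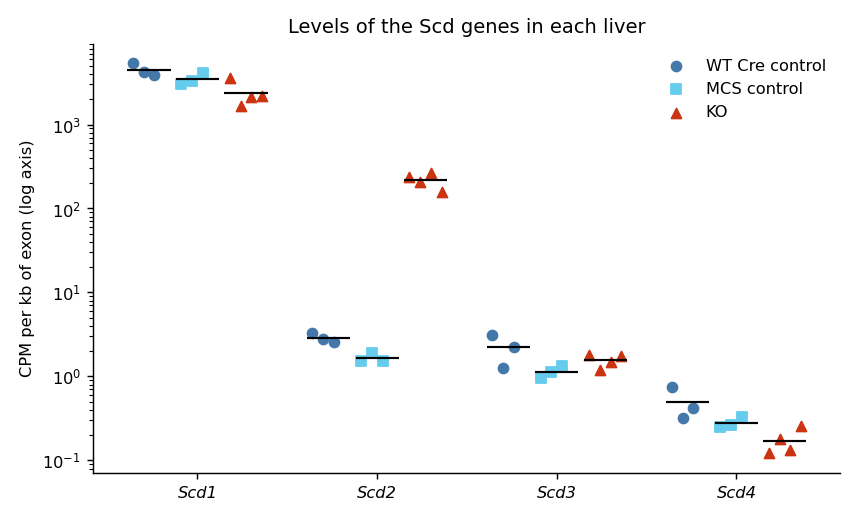
Level of each Scd gene in every liver, in CPM per kb of annotated exon on a log axis. Points are single livers, black lines are group means, and the 4 KO livers (triangles) stand apart from all 6 controls only for Scd2.

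Scd3 did not separate KO from controls. Its counts were 268, 103 and 201 in WT Cre controls, 84, 90 and 84 in MCS controls, and 99, 107, 125 and 164 in KO. The corresponding levels were 11.2, 4.47 and 7.98 CPM, 3.42, 4.02 and 4.70 CPM, and 6.45, 4.23, 5.27 and 6.27 CPM. All KO values fell within the range of the controls. The log2 fold change was -0.11 (SE 0.32) against all controls, -0.51 against WT Cre controls and 0.46 against MCS controls, and its sign changed with the setting, from -0.57 to 0.17.

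Scd4 was the least abundant, with 67, 28 and 40 counts in WT Cre controls, 23, 22 and 22 in MCS controls, and 7, 17, 12 and 25 in KO. The levels were 2.79, 1.21 and 1.59 CPM, 0.936, 0.982 and 1.23 CPM, and 0.456, 0.672, 0.506 and 0.956 CPM. KO 1, KO 2 and KO 3 lay below every control, KO 4 lay within the MCS controls, and all 4 lay below the WT Cre controls. The log2 fold change was -1.14 (SE 0.35), with -1.49 against WT Cre and -0.66 against MCS controls. At so few reads, counting error is a large part of each value. Per 1000 Scd1 counts, Scd4 had 0.0834 counts in WT Cre controls and 0.0620 in MCS controls. In KO it had 0.0621 ± 0.0300 (SD, n = 4), close to the MCS controls. Whether Scd4 changed apart from Scd1, and whether Scd1 reads were counted in it, was not tested.

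**Figure D2:**
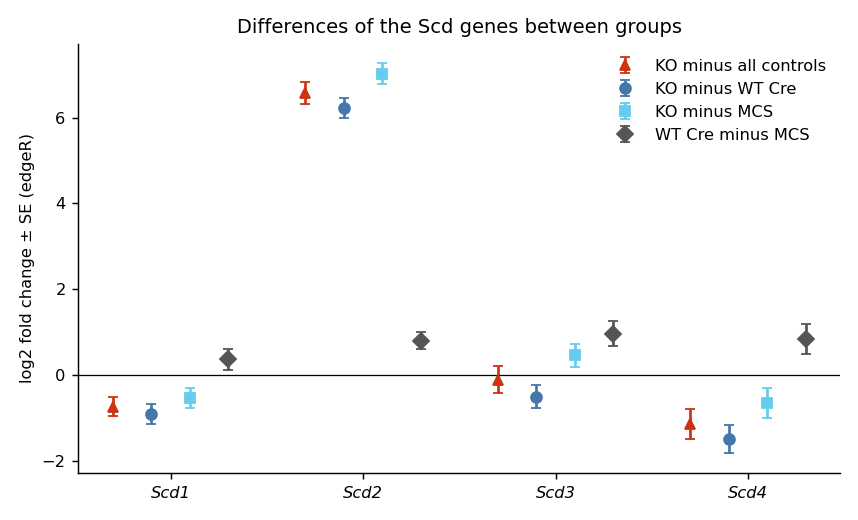
Log2 fold change of each Scd gene with its SE from edgeR, for KO against all controls, KO against each kind of control, and WT Cre against MCS controls. Scd2 lies between 6.23 and 7.03 in the 3 comparisons with KO, which share the KO livers, and all other values lie between -1.49 and 0.97.

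Which desaturase supplied the transcripts was compared as the share of each gene in the summed level of the 4, in CPM per kb, since the genes differ in length. Scd1 made up 99.89 ± 0.0236% of the sum in controls (SD, n = 6) and 91.1 ± 2.67% in KO (SD, n = 4). Scd2 made up 0.0650 ± 0.00273% in WT Cre controls, 0.0487 ± 0.0107% in MCS controls and 8.82 ± 2.67% in KO, with single KO livers at 6.22, 11.1, 11.1 and 6.82%. Scd1 was thus still the most abundant in every KO liver, and it exceeded Scd2 by 1490 to 2686 times per kb in controls and by 7.97 to 15.1 times in KO. The summed level was 3968 ± 812 CPM per kb in controls and 2594 ± 847 in KO. KO 1, at 3817, lay within the controls (3043 to 5340), and the other KO livers, at 1860 to 2371, lay below them. In CPM per kb, the mean of Scd2 went from 2.27 to 217 and that of Scd1 from 3964 to 2376.

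**Figure D3:**
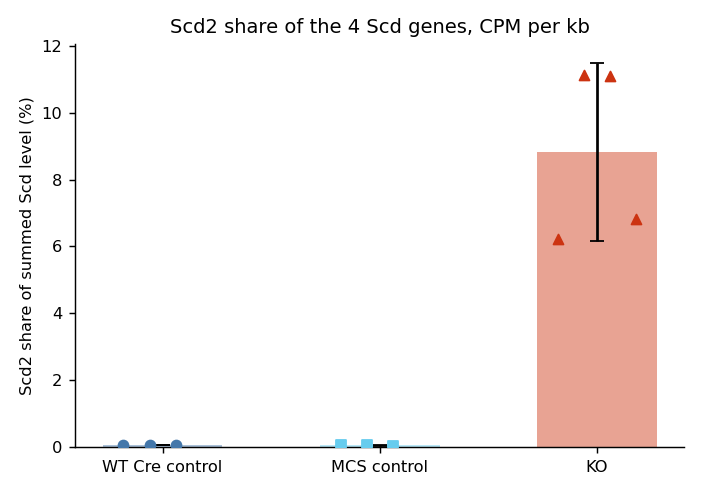
Share of Scd2 in the summed level of the 4 Scd genes, in percent of CPM per kb. Bars are group means with SD, points are single livers, and the KO livers lie at 6.22 to 11.1% while the controls lie at 0.0372 to 0.0670%.

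The order of levels per kb was Scd1, Scd2, Scd3 and Scd4 in each of the 10 livers. In controls the neighbours Scd2 and Scd3 overlapped, at 1.51 to 3.30 and 0.963 to 3.15 CPM per kb, although Scd2 was higher within each of the 6 livers, by 1.05 to 2.21 times. In KO, Scd2 exceeded Scd3 by 89.9 to 177 times. Scd4 was below Scd3 by 3.87 to 5.33 times in controls.

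The deposited FPKM values (fragments per kb of transcript, scaled to depth), made separately, gave a smaller difference for Scd2 and another order in controls. Scd2 was at 8.44 ± 3.99 FPKM in controls and 191 ± 36.6 FPKM in KO, a ratio of 22.6 in place of 95.3. Divided by CPM per kb, the FPKM came to 0.684 to 0.908 for Scd1 in all livers and to 0.847 to 0.924 for Scd2 in KO, but to 2.86 to 4.58 for Scd2 in controls. For Scd3 the quotient was 4.84 to 12.4 and for Scd4 7.69 to 16.5. The values disagreed where a gene was low beside the abundant Scd1. In FPKM, Scd3 was above Scd2 in all 6 controls, the reverse of the order from counts, and below it in all 4 KO livers. The Scd2 share of the summed FPKM was 0.309% in WT Cre controls, 0.215% in MCS controls and 8.74% in KO. How each table assigned reads shared by the copies is not given in the sources used here, and its part in the disagreement was not tested.

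**Figure D4:**
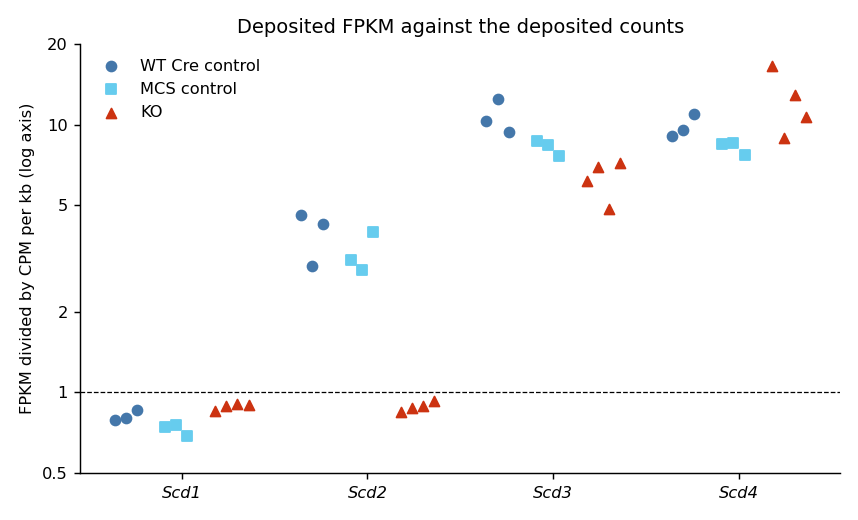
Deposited FPKM divided by CPM per kb computed from the deposited counts, for each Scd gene and liver, on a log axis with a dashed line at equality. Scd1 everywhere and Scd2 in KO lie just under 1, and Scd2 in controls, Scd3 and Scd4 lie at 2.86 to 16.5.

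The 2 kinds of control were compared with each other, which the choice of genes did not use. All 4 genes had a higher mean in WT Cre than in MCS controls, and WT Cre control 1 was the highest control for each. Scd2 was at 15.8 ± 2.01 CPM in WT Cre and 9.04 ± 1.22 CPM in MCS controls (SD, n = 3 each) and its groups did not overlap, as for 22.2% of genes. The difference on the log2 scale was 0.81 with an SE of 0.19 (edgeR adjusted p = 0.0798). For Scd3 it was 0.97 (adjusted p = 0.182), for Scd4 0.84 (adjusted p = 0.413) and for Scd1 0.37 (adjusted p = 0.683), all from edgeR, and these 3 genes overlapped between the groups. None of the 4 passed an adjusted p of 0.05 in edgeR, and 0.927% of all genes did. At an unadjusted p under 0.05 there were 3 of the 4 (Scd2, Scd3 and Scd4), against 10.7% of all genes, and by DESeq2 Scd2 alone passed the adjusted threshold (adjusted p = 0.00587). Over all alternatives the adjusted p of Scd2 ran from 0.00576 to 0.285, the highest without WT Cre control 1. Without that liver, 2 of the 4 had an unadjusted p under 0.05. The 4 genes share stretches of sequence and reads may be shared between them, so they need not be separate readings. For Scd2 the difference between the kinds of control was small beside that of either from KO, whereas for Scd1, Scd3 and Scd4 it was 0.37 to 0.97 on the log2 scale beside KO-control differences of -1.14 to -0.11.

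The surrounding genes did not share the pattern of Scd2. Within 500 kb of the cluster, 35 genes are annotated and 17 were tested. Of these, 2 rose, 3 fell and 12 did not pass. Of all genes tested, 36.3% passed. The protein-coding Bloc1s2 rose by 0.41 on the log2 scale, with an SE of 0.12 (edgeR adjusted p = 0.0140). Cpn1, Chuk and Cwf19l1 fell by 0.38, 0.39 and 0.79 on the log2 scale (adjusted p = 0.0185, 0.00353 and 0.000438). The noncoding AC151478.3, 11.73 kb from Scd1 at its nearest end, rose by 1.83 on the log2 scale from a level of 0.116 CPM (adjusted p = 0.0198). The other protein-coding genes, Cox15, Cutc, Abcc2, Dnmbp, Cyp2c23, Erlin1, Sec31b, Ndufb8 and Hif1an, lay between -0.44 and 0.15. Within the cluster, the pseudogene AC123853.3, which shares 50-base windows with all 4 Scd genes, was at 0.357 ± 0.194 CPM in controls and 0.169 ± 0.0418 CPM in KO (edgeR adjusted p = 0.0784).

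Genes that make, modify and use fatty acids were then read from 6 lists, 84 genes of which 83 were tested (Elovl4 had 8 counts in all). In KO against all controls, 12 rose, 20 fell and 51 did not pass, while 19.7% of all genes rose and 16.6% fell. With library size as the only scaling 17 rose and 13 fell, while 5635 of all 22449 genes rose and 2172 fell. In the main fit 4429 of all genes rose and 3726 fell. The balance of the listed genes thus turned with the scaling, along with a shift toward rises over all genes. In both scalings the listed genes held a lower share of rises and a higher share of falls than all genes. The median log2 fold change was -0.07 over the 83 genes and -0.003 over all genes. KO and control livers did not overlap for 19 of the 83, and for 24.5% of all genes. In all, 32 of the 83 passed, beside 36.3% of all genes, and 19 of these 32 (7 that rose and 12 that fell) passed in all 18 alternatives.

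Upstream of desaturation, 2 of 14 genes rose, 3 fell and 9 did not pass. Acaca, the acetyl-CoA carboxylase of fatty acid synthesis, rose from 128 ± 21.4 to 212 ± 32.0 CPM (log2 fold change 0.72, adjusted p = 0.00133), and Acsl4, an acyl-CoA synthetase that prefers arachidonate, rose by 1.71 (adjusted p = 0.00954). Acacb, the mitochondrial carboxylase, fell by 1.17 (adjusted p = 0.00687) and Me1, the cytosolic malic enzyme, by 1.37 (adjusted p = 0.0311). The call of Acsl4 was lost with a replicate block (adjusted p = 0.0777) and that of Me1 in 9 of 18 alternatives. Fatty acid synthase Fasn (log2 fold change 0.28, adjusted p = 0.575), ATP citrate lyase Acly (0.16, 0.749) and Elovl6, which makes stearate from palmitate (0.94, 0.0674), did not pass. Elovl6 did pass, as a rise, in 7 of 18 alternatives, DESeq2 and the replicate block among them. The p-values here and for the lists that follow are from edgeR, adjusted over all 22449 genes, and sizes of change are log2 fold changes. The counts of each list stand beside 19.7% of all genes that rose and 16.6% that fell.

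Among other desaturases and elongases, 2 of 16 rose, 4 fell and 10 did not pass. Fads2, the delta-6 desaturase of polyunsaturated fatty acids, rose from 757 ± 136 to 1112 ± 161 CPM (0.55, adjusted p = 0.0131), and Hacd3, a dehydratase of elongation, rose by 0.28 (adjusted p = 0.0446), a call that 9 of 18 alternatives lost. Elovl3, an elongase of long saturated and monounsaturated chains, had the largest fall of the 6 lists, from 411 ± 135 to 30.6 ± 9.42 CPM (-3.75, adjusted p = 6.54e-06). Hacd1 fell by 1.21 (adjusted p = 0.000222) and Elovl5 by 1.14 (adjusted p = 0.00146). Fads1, the delta-5 desaturase, was at 595 ± 69.0 and 593 ± 116 CPM (adjusted p = 0.984). None of the 6 electron-chain genes passed in edgeR or in DESeq2 (1 at an unadjusted p under 0.05 in each). Cyb5b passed with library size only (edgeR adjusted p = 0.0425), and Cyb5a without KO 1 (edgeR adjusted p = 0.00262). In edgeR, Cyb5a, the cytochrome b5 of the endoplasmic reticulum, had -0.35 (adjusted p = 0.0604) and its reductase Cyb5r3 -0.04 (adjusted p = 0.840).

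**Figure D5:**
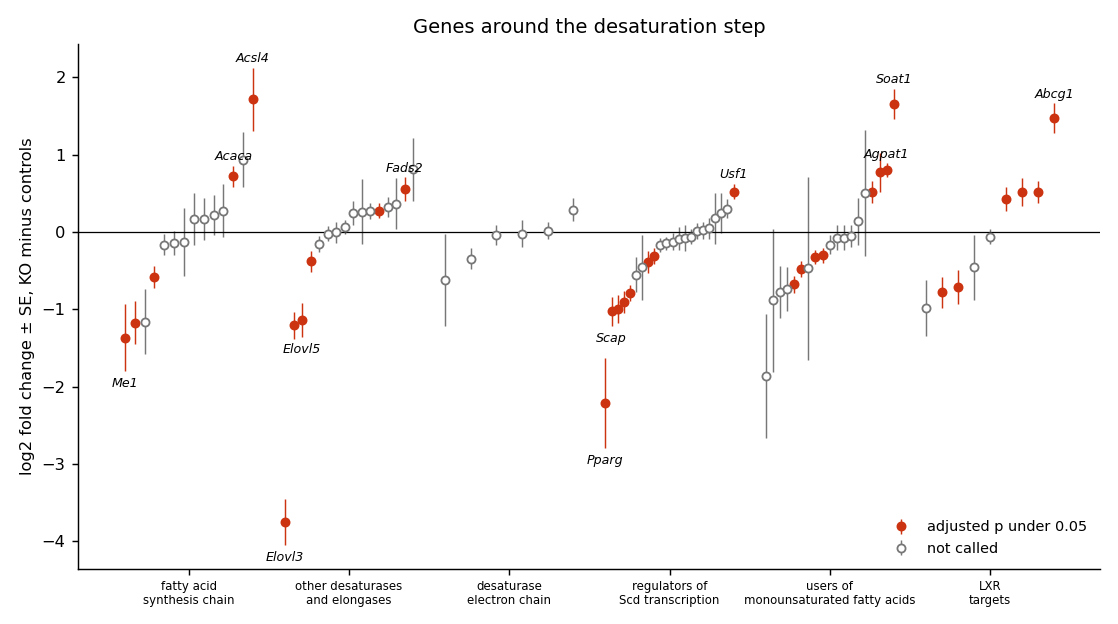
Log2 fold change with SE of the listed genes in KO against all 6 controls, by list, with filled points at an adjusted p under 0.05 (edgeR). Elovl3 (-3.75) and Pparg (-2.21) are the lowest called genes and Acsl4 (1.71) and Soat1 (1.66) the highest.

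Of 22 regulators of Scd transcription, 1 rose, 7 fell and 14 did not pass. Srebf1, which encodes the activator SREBP-1c, was at 233 ± 81.7 CPM in controls and 170 ± 74.3 in KO (adjusted p = 0.438), and LXR alpha (Nr1h3, adjusted p = 0.666), ChREBP (Mlxipl, adjusted p = 0.766) and Insig1 (adjusted p = 0.720) also did not pass. Scap, the escort of SREBP, fell by 1.03 (adjusted p = 0.000884), Insig2, which retains SCAP in the endoplasmic reticulum, by 0.90 (adjusted p = 0.000330), and Rxra, the partner of LXR and PPAR, by 0.78 (adjusted p = 9.63e-05). Pparg fell by 2.21 (adjusted p = 0.0154) and Ppara by 0.39 (adjusted p = 0.0488). However, Ppara lost its call in 14 of 18 alternatives and Pparg in 2 (the replicate block and leaving out KO 4). The block also sets KO 4 aside, so the 2 alternatives are not separate checks. Usf1, an E-box factor, rose by 0.52 (adjusted p = 0.00130). Among 9 LXR targets, 4 rose and 2 fell, with the cholesterol exporter Abcg1 (1.48, adjusted p = 9.10e-05) and the acyltransferase Lpcat3 (0.52, adjusted p = 0.0111) up, and the biliary sterol transporter pair Abcg5 (-0.78, adjusted p = 0.00921) and Abcg8 (-0.71, adjusted p = 0.0257, lost in 7 of 18 alternatives) down. The other genes of the list that rose, Abca1 and Mylip, each lost the call in 9 of 18 alternatives, the replicate block among them. Scd1 was lower and Scd2 higher beside them, and the LXR targets did not move one way.

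Of 19 genes listed as users of fatty acids, not only of monounsaturated ones, 4 rose, 4 fell and 11 did not pass. Soat1, which esterifies cholesterol, rose from 4.12 ± 0.668 to 12.9 ± 4.01 CPM (1.66, adjusted p = 4.87e-05), and Agpat1, of glycerolipid synthesis, rose by 0.80 (adjusted p = 3.29e-05). Cpt1a, the gate of mitochondrial oxidation, fell by 0.68 (adjusted p = 0.000420) and Agpat3 by 0.48 (adjusted p = 0.00279). Soat2, which makes cholesteryl esters in hepatocytes (adjusted p = 0.762), Dgat2, which completes triglycerides (adjusted p = 0.320), and the lipid droplet coat Plin2 (adjusted p = 0.766) did not pass. Between the 2 kinds of control, 1 of the 83 genes passed, beside 0.927% of all genes tested. It was the phosphatidate phosphatase Lpin1, at 103 CPM in WT Cre and 667 CPM in MCS controls (edgeR adjusted p = 0.0225).

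Markers of other liver cells differed between the groups along with Scd2, and in bulk RNA fewer cells of a type and less RNA per cell cannot be told apart. All 10 Kupffer cell and macrophage markers rose, with a summed level of 282 to 519 CPM in controls and 654 to 1516 CPM in KO, and all 10 stellate cell and fibroblast markers rose (222 to 284 and 502 to 809 CPM). Of lymphoid markers 6 of 8 rose (3.19 to 5.86 and 5.15 to 18.5 CPM), of endothelial markers 2 of 8, or 6 with library size only (220 to 278 and 242 to 424 CPM), of cholangiocyte markers 1 of 8 (51.0 to 82.2 and 72.1 to 90.8 CPM) and of fetal liver genes 4 of 7 tested (3.84 to 6.03 and 11.1 to 128 CPM). Of all genes, 19.7% rose, and the endothelial and cholangiocyte counts of the main fit were not far from that share. With library size only, 5635 of 22449 genes rose, and the 6 of 8 endothelial markers were above that share. The fetal genes that rose were Igf2, Gpc3, Igf2bp3 and Ccna2, while Afp, H19 and Dlk1 did not pass (edgeR adjusted p = 0.288, 0.386 and 0.0829). Igf2 reached 115 CPM in KO, and no other gene of that list exceeded 5.27 CPM in any liver. Hepatocyte markers fell, 7 of 8, from 117714 to 158642 CPM in sum to 86468 to 104189 CPM, while 16.6% of all genes fell. Among adipocyte markers 1 rose and 1 fell of 5 tested. Fabp4 went from 8.54 to 13.3 CPM and Pck1 from 2701 to 1393 CPM. The defining ones were close to absent, with 6 counts of Adipoq, 5 of Plin1 and 0 of Lep over all 10 livers. The changes of Fabp4 and Pck1 are therefore not read as adipocyte signal.

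Within the KO group, the order of the livers by the macrophage and stellate cell sums differed from their order by Scd2, and other lists ran in other orders. KO 1, with 1297 CPM of Scd2, had the lowest macrophage (654 CPM), stellate cell (502 CPM), lymphoid (5.15 CPM) and fetal (11.1 CPM) sums of the 4. KO 4, with 867 CPM, the lowest Scd2 value, had the highest macrophage (1516 CPM) and stellate cell (809 CPM) sums. The hepatocyte sum was lowest in KO 4 (86468 CPM) and highest in KO 1 (104189 CPM). KO 3, with the highest Scd2 value, had the highest fetal sum (128 CPM, mostly Igf2), and KO 1 had the highest cholangiocyte sum (90.8 CPM). KO 1 also had the highest Scd1 level and the highest sum over the fatty acid synthesis list, at 8126 CPM beside 4303 to 5354 CPM in KO 2 to 4. The part of these cells in the Scd levels was not tested.

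Genes whose profile over the 10 livers was most like that of each main desaturase were found by the root mean square distance of log2 CPM, centred on the control mean, among 13209 genes with a mean of at least 1 CPM. For Scd1 they were Gm26616 (distance 0.13), Gbe1 (0.17), Zfp560 (0.18), Polr3g (0.18) and Aga (0.19). The glycogen branching enzyme gene Gbe1 was at 173 ± 32.3 CPM in controls and 111 ± 36.6 in KO. For Scd2 they were Gm11100 (0.35), the pseudogene Cyp2d41-ps (0.40), the pseudogene Gm5690 (0.61), the phosphate transporter gene Slc34a2 (0.66) and Fam181b (0.73). Slc34a2 was at 1.40 ± 0.648 CPM in controls and 95.6 ± 46.8 in KO, and Cyp2d41-ps, whose reads may be shared with its relatives, at 1.30 ± 0.266 and 120 ± 24.8. The nearest genes to Scd2 had a control mean of 1.40 CPM or less. Gm11100, Gm5690 and Fam181b, at 0.363, 0.0165 and 0.0638 CPM in controls, met the minimum of 1 CPM only through their KO values. Log2 CPM was taken with a prior count of 2, which sets the control values of such low genes. Their likeness to Scd2 is therefore a description that the filter and the prior count helped to shape. The median distance over all 13209 genes was 0.633 from Scd1 and 4.225 from Scd2, so distances are not comparable between the 2 genes.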

How the data were processed

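Poly(A) RNA of 10 livers was sequenced from directional libraries. The study's methods name STAR alignment to mm10 and HOMER counting, and the submitters' processing notes name STAR, HTSeq and Cufflinks. The authors deposited whole-number counts per gene and, separately, FPKM values, whose 268042 blank cells were read as 0. Strand settings and the treatment of multiply matching reads are not given in the sources used here. No per-sample column was left unused, and 55154 of 55421 identifiers matched GENCODE M21, the source of coordinates, exon lengths and sequences.

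KO columns carry the replicate numbers of the titles. Control columns 1 to 3 were taken as WT Cre and the remaining 3 as MCS controls by library number. Values for one kind of control rest on that match. The labels number replicates without naming animals, so p-values measure the spread between these samples. No 2 libraries of a group agreed within sampling noise, with chi-square over its degrees of freedom at 10.3 to 96.7.

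Genes with at least 10 summed counts (22449) were fitted with edgeR 4.0.16 in R 4.3.3 (TMM, robust quasi-likelihood F test, two-sided, Benjamini-Hochberg), KO against 6 controls, and in a fit of all 3 groups. The fit was tested on simulated data. CPM used TMM-scaled library sizes. CPM per kb divides by merged exon length. DESeq2 1.42.0, limma 3.58.1 on log2(FPKM + 1) and log2(FPKM + 0.1), other scalings and filters, a replicate block and each liver left out were alternatives. Precision at low levels is set by depth, 14998426 to 26096141 counts.

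The members, gene lists and comparisons were chosen with earlier results of these data known. Named genes were the 4 Scd genes, neighbours within 500 kb, fixed pathway genes, the 2 largest called changes in each direction per pathway list, and the 5 nearest profiles of Scd1 and Scd2. Same-numbered livers were not treated as pairs. No set test was run.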

Additional observations from a re-analysis of the deposited data

Results flagged for a closer look

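Among the 8 sets of Scd gene and group (6 controls or 4 KO livers) 1 held a value that stood apart from the rest of its set. Scd4 in WT Cre control 1 was at 2.79 CPM (67 counts), the highest of the 6 controls, and its gap to the next control, 1.59 CPM, was 0.649 of the whole range, over the Dixon limit of 0.625 at 95%. Chance alone flags about 1 in 20 such sets. The same liver also had the highest Scd1, Scd2 and Scd3 levels among controls, with gaps of 0.491, 0.293 and 0.412 of the range, all under the limit. In KO, Scd1 in KO 1 had a gap of 0.732, under the limit of 0.829 for 4 livers.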

How the results depend on the processing

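Of 376 recomputed values, 341 stayed with the main one and 29 moved beyond the spread between livers or 1.5 times. Another 6 passed a threshold that the main value missed, and 0 were labelled reversed. For differences from KO, that label needed a main value larger than the spread between livers. Scd3 against all controls (-0.11, spread 0.50) could not get it, although its sign changed, from -0.57 to 0.17. The FPKM table moved most of the Scd log2 fold changes. With log2(FPKM + 1) and log2(FPKM + 0.1), Scd2 had 4.42 and 4.58 for KO against controls, 3.96 and 4.07 against WT Cre, and 4.89 and 5.10 against MCS controls. Scd3 had -1.12 and -1.19 against WT Cre and 0.0443 and 0.0457 against MCS controls (0.71 with library size only). Scd4 with log2(FPKM + 1) had -0.53, -0.92 and -0.14, and -0.20 against MCS controls with log2(FPKM + 0.1). The cause was not tested. The Scd2 share was 0.309% in WT Cre and 0.215% in MCS controls by FPKM, and 0.0726% in WT Cre controls by counts without a length scale.

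For WT Cre against MCS controls, Scd2 passed with library size only (0.94, edgeR adjusted p = 0.0265), DESeq2 (0.81, adjusted p = 0.00587), no filter (0.82, edgeR adjusted p = 0.00576), and without KO 1 (edgeR adjusted p = 0.0425) or KO 4 (edgeR adjusted p = 0.0174). Its log2 fold change ran from 0.70 to 0.92 with 1 liver left out. The genes called there numbered 208 in the main fit, 651 by DESeq2, 315 without a filter and 70 to 517 with 1 liver left out, the fewest without WT Cre control 3 and the most without KO 1.

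With the replicate number as a block, Scd2 had 0.80 for WT Cre against MCS controls (edgeR adjusted p = 0.0295) and 386 genes were called there. Deviations of log2 CPM from the group mean correlated at -0.039 to 0.111 between same-numbered livers, over 9 pairs. Of these pairs 1 was over 0.1, so the numbers were not taken as pairing.

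Pathway genes that fell numbered 20, 13 with library size only and 15 to 26 with 1 liver left out. Those that rose numbered 12, 17 with library size only and 8 to 13 with 1 liver left out. Library size alone shifted the median difference over all genes to 0.17 (log2) and the share of calls that were higher from 54.3 to 72.2%. Of 32 called pathway genes, 19 were called in all 18 alternatives and 0 changed sign. Acsl4 and Pparg lost their calls with the block, and Me1, Hacd3, Ppara and Abcg8 in 7 to 14 alternatives. Depth limits Scd3 and Scd4, at 7 to 268 counts.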
